A study of Mus musculus with 6 samples.

Results

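The hepcidin genes and the genes that handle iron around them were followed in newborn mouse liver after 3 maternal diets. The 10 genes were Hamp, Hamp2, Tfrc, Tfr2, Hfe, Tmprss6, Slc40a1, Trf, Smad7 and Id1, out of 19938 genes with a probe annotated to a single gene. Each gene was read by 1 probe, the one with the highest mean log2 signal over the 6 arrays among its single-gene probes. All 10 had a mean of at least 5, the minimum for testing that 10977 genes met. Hamp and Hamp2 met it through the other arrays, since their means on the SFA diet lay below 5. The 10 genes were chosen with differences between these same diets known. Their values are therefore given as a description, with differences and errors but no test.

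Liver RNA was hybridised to Affymetrix arrays, 2 per diet, and each array carried RNA pooled from 3 livers. The pups were C57Bl6/J and their livers were taken within 1 day of birth. Their mothers, 4 to 5 weeks old when the study used them, ate 1 of 3 isocaloric diets with 6 g% oil. The Control group had soybean oil, the ALA group flaxseed oil, in a diet given as 31.6% alpha-linolenic acid (ALA), and the SFA group coconut oil, in a diet given as 48.51% saturated fatty acids (SFA). Fathers ate regular chow but shared the female's diet during mating, so the parents of all pups ate their group's diet at mating. The labels name no altered allele and no drug in any group. Nothing in the labels tells whether the pools of a diet held different animals or litters, so an error here measures the spread between pools, which may be technical.

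Hepcidin is a peptide hormone made by hepatocytes. It binds ferroportin, the iron exporter encoded by Slc40a1, and causes its degradation, which holds iron inside macrophages and gut cells. Mice carry a pair of neighbouring hepcidin genes, Hamp and Hamp2, and Hamp encodes the peptide with the established effect on iron. Hamp transcription is driven by bone morphogenetic protein (BMP) signalling through SMAD proteins and by interleukin-6 through STAT3. The sensors HFE, transferrin receptor 2 and hemojuvelin promote it, and the protease TMPRSS6 restrains it by cleaving hemojuvelin.

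The promoters of the hepcidin pair are shown because, of the 10 genes, these had the largest differences from Control and because Hamp is a known target of both routes. Each is the 250 bases before the transcription start in RefSeq, assembly GRCm38.p6, read on the minus strand, 5′ to 3′. The Hamp window is chr7:30944030-30944279 and the Hamp2 window chr7:30924182-30924431. Capitals mark matches to the core of a BMP-responsive element (GGCGCC), a STAT site (TTCNNNGAA) and an AP-1 site (TGAGTCA).
Hamp: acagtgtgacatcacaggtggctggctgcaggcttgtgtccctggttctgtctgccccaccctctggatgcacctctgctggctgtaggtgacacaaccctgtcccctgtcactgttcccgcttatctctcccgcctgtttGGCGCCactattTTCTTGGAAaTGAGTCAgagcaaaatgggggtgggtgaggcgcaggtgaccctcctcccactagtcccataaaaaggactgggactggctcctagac
Hamp2: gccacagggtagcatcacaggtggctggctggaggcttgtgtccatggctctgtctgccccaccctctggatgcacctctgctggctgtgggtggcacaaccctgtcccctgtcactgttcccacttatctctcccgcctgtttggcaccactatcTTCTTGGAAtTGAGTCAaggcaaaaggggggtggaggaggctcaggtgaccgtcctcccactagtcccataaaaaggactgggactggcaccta

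Over 247 aligned bases, 227 were identical between the windows, or 91.9%. Hamp held GGCGCC at -109 to -104, counted from the base before the start as -1, and Hamp2 held no match to it. The aligned letters in Hamp2 were GGCACC, which is the substitution G4A counted from the first base of the Hamp motif. Both held TTCTTGGAA, at -97 to -89 in Hamp and -94 to -86 in Hamp2. Both also held TGAGTCA, at -87 to -81 and -84 to -78. Both strands were searched, and no matches overlapped in these windows. Of 32851 mouse promoter windows of the same length, 9.59% held GGCGCC, 7.02% TTCNNNGAA and 4.46% TGAGTCA, so each motif also occurs widely. A match is a description of letters and not a measured site. Among the other members, 3 had a RefSeq window that could be read, for Tfrc, Tfr2 and Hfe. Tfrc held GGCGCC at -89 to -84 in 1 of its windows, Hfe held the AP-1 letters on the minus strand at -67 to -61, and Tfr2 held none of these 3 motifs. The letters CACGTG (an E-box, in 6.02% of windows) and TATAAA (12.4%) were searched too and were in neither hepcidin window.

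**Figure D1:**
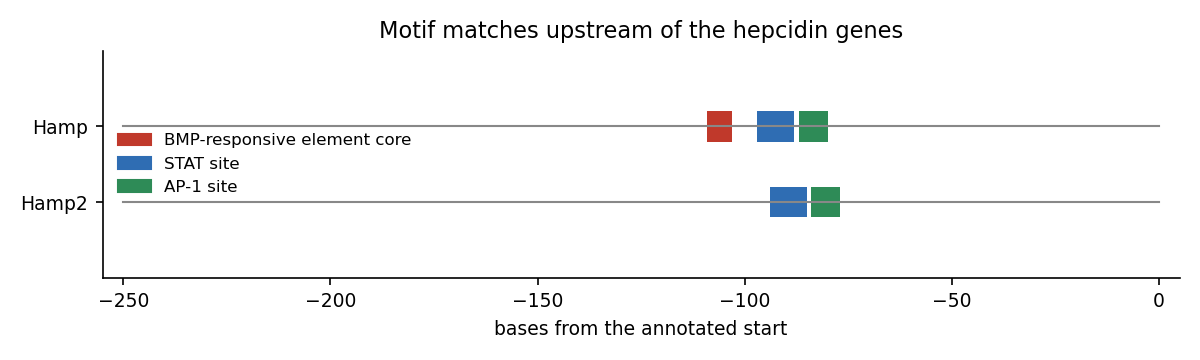
Map of the motif matches in the promoter windows, with distance from the transcription start in bases on the x axis and 1 line per gene window. Hamp holds 3 matches between -109 and -81, and Hamp2 holds 2 of them, without the GGCGCC match.

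The livers carried strong hepatocyte signal on every array, with albumin (Alb) between 12.58 and 12.75 log2 units and the mean over 11 hepatocyte markers between 12.0 and 12.2. Array medians were 4.76 and 4.82 on the SFA diet and 4.90 to 4.96 on the others. The sex makeup of the pools differed between the diets. Xist stood at 10.67 and 8.34 in Control, 3.76 and 4.24 in ALA and 9.46 and 9.51 in SFA, while the Y-linked Eif2s3y stood at 3.63 and 7.95, 7.74 and 7.80, and 4.11 and 3.79. The ALA pools and the SFA pools were thus of opposite kinds and the Control pools were unlike each other, and diet and sex cannot be told apart between ALA and SFA. As a guide to the level of probes without transcript, 3 Y-linked genes read 3.45 to 4.42 on the 3 arrays whose Xist signal was above 9.

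Hamp was the gene with the largest decrease among all 10977 tested genes on the SFA diet and the second largest on the ALA diet. It encodes hepcidin itself. Its log2 signal was 11.78 and 11.61 on the Control arrays, 5.73 and 4.52 on the ALA arrays and 3.83 and 4.85 on the SFA arrays. Every array of both test diets lay far below both Control arrays, while the ALA and SFA arrays overlapped each other. The difference from Control was -6.57 (SE 0.44, n = 2 arrays per group) in ALA, 95.1-fold lower, and -7.35 (SE 0.44) in SFA, 164-fold lower. The lowest arrays sat near the level of the Y-linked probes above, so these folds depend on the floor of the array. In pooled liver, fewer cells of a type and less RNA per cell cannot be told apart.

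The spread inside the Control group was small beside this gap, although its 2 pools differed in their sex-linked genes. With the second Control array left out, Hamp was lower by -6.66 in ALA and -7.44 in SFA. With the first left out, the differences were -6.48 and -7.27. The part of sex makeup in the Hamp difference was not tested.

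Hamp2, the neighbouring paralog, was also lower on both diets. It read 8.85 and 8.40 in Control, 5.76 and 5.16 in ALA and 4.52 and 4.27 in SFA. All 3 groups stood apart, with Control highest and SFA lowest. The differences from Control were -3.17 (SE 0.24) in ALA, 8.97-fold, and -4.23 (SE 0.24) in SFA, 18.8-fold. They ranked 10 and 4 among the decreases of all tested genes. The SFA arrays lay in or just above the range of the Y-linked probes, so the SFA values depend on the floor of the array, as those of Hamp do, and the sizes of the Hamp and Hamp2 decreases cannot be ranked by them. On the measured values ALA exceeded SFA by 1.07 (SE 0.24) for Hamp2 and by 0.78 for Hamp. The transcripts of the pair are closely related, so the probes may partly read both, and a share of the Hamp2 signal on the Control arrays may belong to Hamp. The extent of this was not tested.

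**Figure D2:**
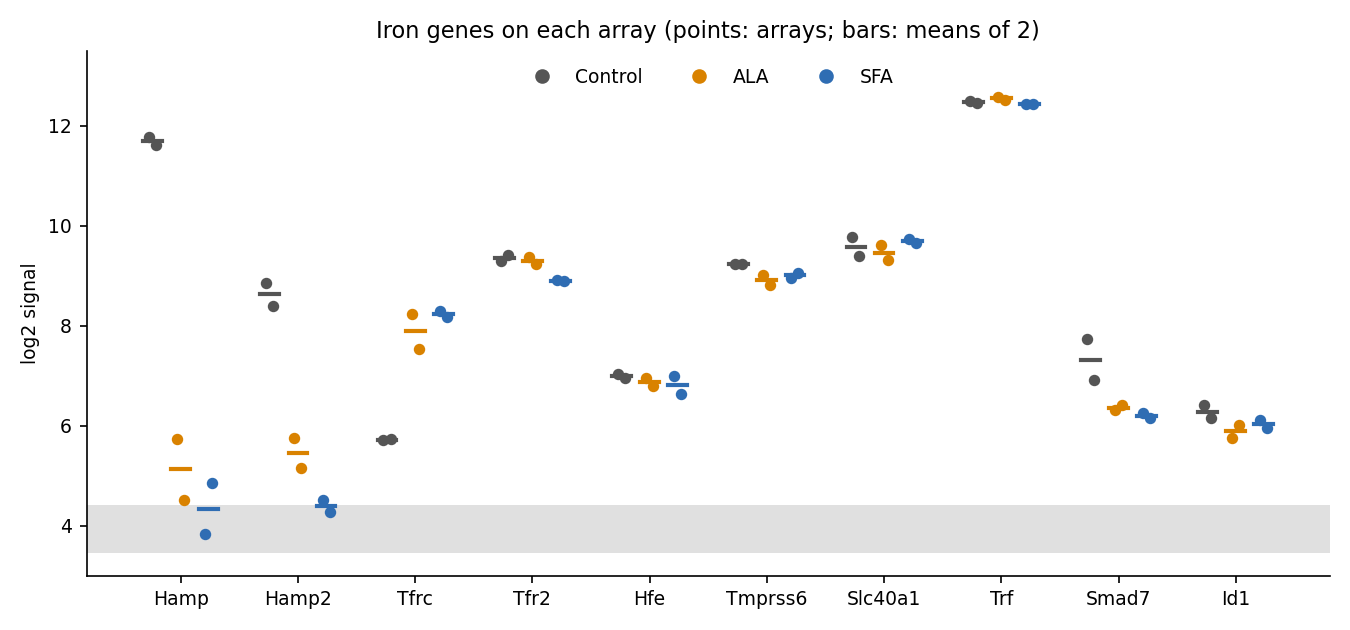
Log2 signal of the 10 genes on each of the 6 arrays, with the genes side by side on 1 axis. Each point is 1 array, grouped by maternal diet. The grey band is the 3.45 to 4.42 range of Y-linked probes on the 3 arrays with Xist above 9. Hamp lies at 11.78 and 11.61 in Control and between 3.83 and 5.73 on the other diets, Tfrc lies higher on both, and Trf, Hfe and Slc40a1 are nearly level.

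Tfrc, the receptor through which cells take up transferrin-bound iron, stood higher on both test diets. It read 5.70 and 5.74 in Control, 8.23 and 7.54 in ALA and 8.29 and 8.18 in SFA. The Control arrays were nearly equal and lay below all 4 others, while ALA and SFA overlapped. The differences were 2.17 (SE 0.22), 4.49-fold, in ALA and 2.51 (SE 0.22), 5.71-fold, in SFA. They ranked 30 and 27 among the increases of all tested genes. TFRC is abundant on red cell precursors, which newborn liver contains, and iron regulatory proteins stabilise its mRNA when cells lack iron.

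Erythroid markers moved in part with Tfrc. Of 14 erythroid markers with a probe, 8 were tested, and Slc4a1, the anion exchanger of red cells, rose in both comparisons by limma's moderated test. It rose by 2.22 in ALA (adjusted p = 0.00246) and by 2.52 in SFA (adjusted p = 0.00108), from 4.66 and 4.84 in Control to between 6.83 and 7.42. Both Control arrays lay below 5, so Slc4a1 met the minimum for testing through the other arrays, where it was high. The size of its rise depends on the floor of the array. None of the other 7 rose, and Ermap fell by 1.10 in SFA. Its SFA arrays read 4.37 and 4.29, so Ermap met the minimum through the other arrays, where it was high. The size of its fall also depends on the floor of the array. The adult globins on the list have probes annotated to several genes, which were outside the gene tests. Those 4 probes lay above Control by 1.63 to 2.26 in ALA and by 1.54 to 2.18 in SFA. The summed linear signal of the 14 was 466.4 to 504.7 in Control, 564.3 to 583.8 in ALA and 636.8 to 650.8 in SFA, and 6 of them, among them Gata1 and Hemgn, had a mean below 5 over the 6 arrays. Their part in the Tfrc difference was not tested.

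Tfr2, Hfe and Tmprss6, which sense iron or restrain hepcidin in hepatocytes, differed far less than the hormone genes. Tfr2, the second transferrin receptor, read 9.29 and 9.42 in Control, 9.37 and 9.23 in ALA and 8.91 and 8.89 in SFA. Only the SFA arrays stood apart, at -0.45 (SE 0.13) from Control, and ALA differed by -0.05 (SE 0.13). Hfe, the protein altered in the common form of hereditary hemochromatosis, read 7.03 and 6.96, 6.95 and 6.80, and 6.99 and 6.63. Its ALA arrays cleared the Control arrays by a margin within the spread of any group, at -0.12 (SE 0.16), and its SFA arrays overlapped them at -0.19. Tmprss6 read 9.23 and 9.23 in Control, 9.01 and 8.82 in ALA and 8.96 and 9.05 in SFA. It was lower on both diets, by -0.32 and -0.22 (SE 0.13 each). When the arrays were centred on their medians, the SFA difference shrank to -0.07 for Tmprss6 and to -0.29 for Tfr2.

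The export and transport genes were close to level. Slc40a1, ferroportin, read 9.77 and 9.39 in Control, 9.61 and 9.31 in ALA and 9.72 and 9.65 in SFA. Both test diets overlapped Control, with differences of -0.12 (SE 0.17) and 0.11, whose sign changed when single arrays were left out. Trf, transferrin, the iron carrier of plasma, read 12.49 and 12.46, 12.58 and 12.51, and 12.44 and 12.43. Its differences were 0.07 (SE 0.12) and -0.03, and the sign of the SFA difference depended on how the arrays were scaled. Hepcidin acts on the ferroportin protein, which these arrays did not measure.

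The last pair, Smad7 and Id1, are genes that BMP signalling switches on, and SMAD7 feeds back to inhibit the pathway. Smad7 read 7.73 and 6.91 in Control, 6.31 and 6.41 in ALA and 6.25 and 6.15 in SFA. All 4 arrays of the test diets lay below the Control arrays, whose own gap was wide. The differences were -0.96 (SE 0.25), 1.95-fold, and -1.12 (SE 0.25), 2.18-fold. They rested on the first Control array, since they were -0.55 and -0.71 without it and -1.37 and -1.53 without the second. Id1, a transcriptional inhibitor, read 6.41 and 6.15, 5.76 and 6.01, and 6.11 and 5.95, lower by -0.40 and -0.25 (SE 0.16 each).

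**Figure D3:**
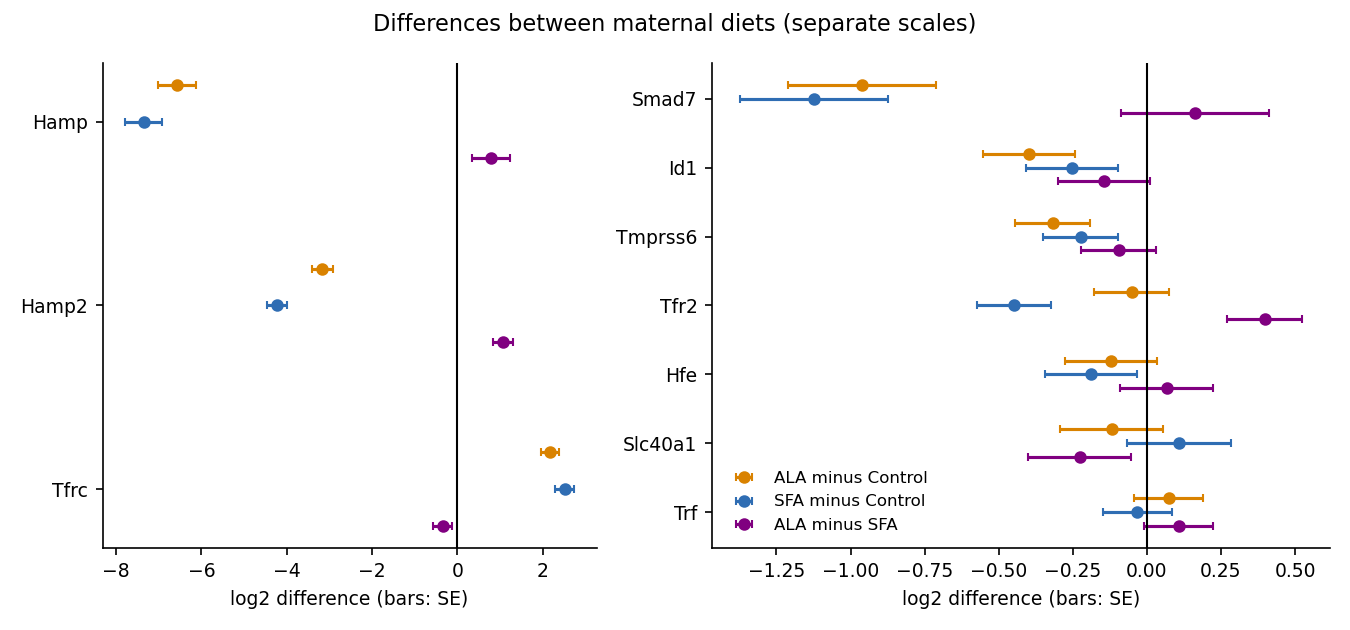
Differences in log2 signal for the 10 genes, as points with 1 standard error from the limma model, for each test diet against Control and for ALA against SFA, on separate scales left and right. Hamp at -6.57 and -7.35 lies far from the rest, Tfrc at 2.17 and 2.51 is the only large positive value, and 6 genes lie within 0.5 of 0 in all 3 comparisons.

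Counted over the 10 genes, the ALA arrays did not overlap the Control arrays for 8 genes, 2 higher and 6 lower. Such separation held for 55.0% of all tested genes, 27.0% higher and 28.0% lower. SFA arrays stood apart from Control for 8 genes, 1 higher and 7 lower, against 64.2% of all genes, 28.6% higher and 35.7% lower. ALA and SFA stood apart for 5 genes, 4 higher in ALA and 1 lower, against 55.8% of all genes, 31.4% and 24.4%. The rule for the 10 genes used these contrasts, so nothing is read from the counts. The median difference over the 10 was -0.22 in ALA, -0.24 in SFA and 0.09 between them, beside -0.01, -0.05 and 0.04 over all tested genes. The ALA and SFA comparisons share the Control arrays, so their values stand side by side and their likeness is no separate result.

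Beyond these 10, 110 iron genes in 11 lists were examined, of which 105 had a probe and 95 were tested. By limma's moderated test with Benjamini-Hochberg adjustment over all 10977 genes, 5 rose and 6 fell in ALA, or 11.6% of those tested, beside 7.93% of all genes (5.11% higher and 2.82% lower). In SFA 5 rose and 9 fell, or 14.7%, beside 13.8% (6.62% and 7.15%). Between ALA and SFA only Alas1 passed, higher in ALA, or 1.05%, beside 1.53% (1.09% and 0.437%). The shares in SFA and between the test diets were thus near those of all genes. The gap between the ALA share and that of all genes was not tested. With any 1 array left out the ALA count was lower, and so was the count over all genes. Without any 1 of the Control and SFA arrays the SFA count was lower, again with the count over all genes.

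Genes that BMP signals are known to induce had the lowest medians of the 11 lists, at -0.77 in ALA and -1.27 in SFA. Of 5 tested besides Smad7 and Id1, 2 fell in ALA and 3 in SFA. Both medians are the values of Id3, the middle gene of the 5. Id2, a transcriptional inhibitor, read 10.96 and 10.94 in Control, 9.39 and 9.04 in ALA and 9.38 and 9.25 in SFA. It fell by 1.74 (SE 0.15, adjusted p = 0.00339) and by 1.64 (adjusted p = 0.00302), with no overlap between Control and the other 4 arrays. Atoh8, a transcription factor that can activate the hepcidin promoter, read 7.79 and 7.19, 5.84 and 5.77, and 6.05 and 5.53. It fell by 1.69 (SE 0.24, adjusted p = 0.0104) and by 1.70 (adjusted p = 0.00826), but in ALA not without the first ALA array (adjusted p = 0.0527) or the second (adjusted p = 0.0645). Id3 fell by 1.27 in SFA (SE 0.22, adjusted p = 0.0165), but not without the first Control array (adjusted p = 0.0672) or the second SFA array (adjusted p = 0.0784). Its ALA difference was -0.77 (adjusted p = 0.0821). The other pair, Smad6 and Bambi, named after their values were seen, differed by -0.01 and 0.42 in ALA and by -0.13 and 0.42 in SFA, and neither passed.

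The upstream part of the same route gave a different picture. Of 13 tested genes for ligands, receptors, co-receptors and SMADs, 1 rose in ALA and in SFA 1 rose and 1 fell, with medians of -0.02 and -0.03. Bmp4 rose by 0.85 in ALA (SE 0.15, adjusted p = 0.021) and by 0.64 in SFA (adjusted p = 0.0353). With 1 array left out, the ALA call was lost without the first Control array (adjusted p = 0.0607), the second (0.106) or the first ALA array (0.0633). The SFA call was lost without any 1 of the 4 Control and SFA arrays, at adjusted p of 0.0902 to 0.149. Smad9, a receptor-regulated SMAD, read 7.23 and 7.49 in Control, 6.62 and 6.56 in ALA and 5.62 and 6.11 in SFA. It fell by 1.50 in SFA (SE 0.19, adjusted p = 0.00627), while the ALA difference was -0.77 (adjusted p = 0.0543).

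The ligands best known for hepcidin control did not pass. Bmp6, the ligand that rises with liver iron, differed by -0.51 (adjusted p = 0.15) in ALA and -0.53 (adjusted p = 0.105) in SFA. Bmp2 differed by 0.44 (adjusted p = 0.402) and 0.66 (adjusted p = 0.166), and the SFA difference passed at 1.12 without the first Control array (adjusted p = 0.0338). Hjv, hemojuvelin, the BMP co-receptor, differed by 0.57 (adjusted p = 0.125) and 0.42 (adjusted p = 0.185). Of 8 tested antagonists and proteases none passed in either comparison by limma, and at an unadjusted p under 0.05 the counts were 0 in ALA and 2 in SFA. Among them Erfe, the erythroid hormone that lowers hepcidin, read 5.15 and 5.39, 5.40 and 5.18, and 4.91 and 4.87, close to the test minimum.

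On the interleukin-6 and STAT3 route, 1 of 11 tested genes rose in ALA and none passed in SFA by limma, where 2 had an unadjusted p under 0.05. Il6ra, the interleukin-6 receptor, rose by 1.01 in ALA (SE 0.15, adjusted p = 0.0126), but not without the first ALA array (adjusted p = 0.0568) or the second (adjusted p = 0.0528). In SFA it differed by 0.26 (adjusted p = 0.279), and the ALA and SFA values differed by 0.74 (adjusted p = 0.0621). Il6 itself lay below the minimum signal.

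**Figure D4:**
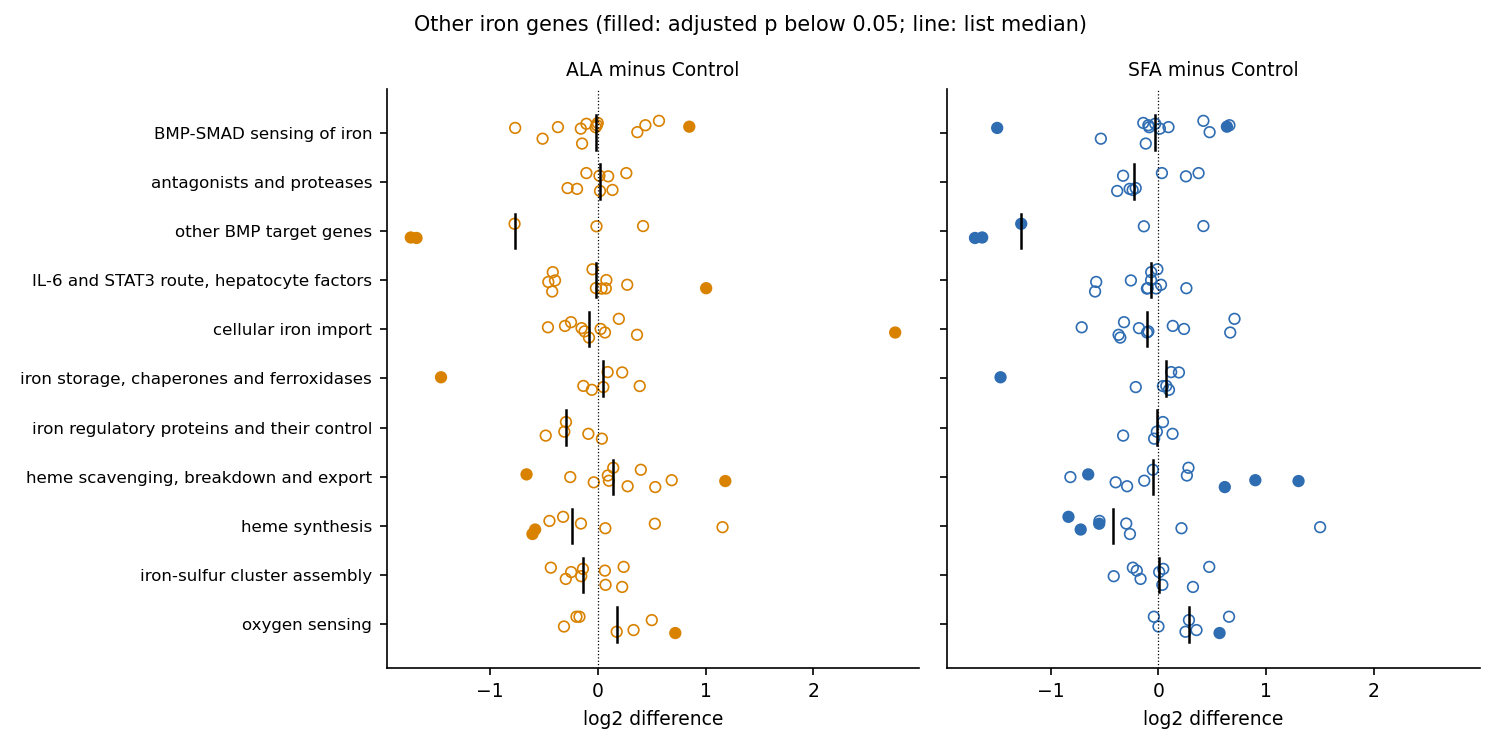
Differences from Control in log2 signal for the tested genes of each iron list, ALA on the left and SFA on the right on a common scale, with 1 point per gene, called genes filled and the list median as a line. The other BMP target genes have the lowest medians, -0.77 and -1.27, and the medians of the other lists lie between -0.42 and 0.28.

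Iron import and storage changed at few genes. Of 11 tested import genes, only Lcn2 rose in ALA and none passed in SFA by limma, where 2 had an unadjusted p under 0.05. LCN2 binds iron-carrying siderophores and is an acute-phase protein. It read 7.63 and 9.86 in Control, 11.91 and 11.10 in ALA and 9.38 and 9.45 in SFA, and rose by 2.76 (SE 0.64, adjusted p = 0.047) in ALA. The Control arrays were far apart, and the call was lost in 10 of 15 alternative analyses. Among these, leaving out either SFA array is the same fit as comparing only the 4 ALA and Control arrays. Over the 15 the difference ran from 1.64 to 3.88. Among arrays, it was lost without the first Control array (1.64, adjusted p = 0.0542) and without any ALA or SFA array (adjusted p = 0.086 to 0.177). Slc11a2, the importer DMT1, differed by -0.15 and -0.18, and Slc39a14, the importer ZIP14, by 0.36 and -0.37. None of these passed.

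Among 7 tested genes of storage, chaperones and ferroxidases, Bdh2 was the only one to pass. BDH2 is an enzyme described in the synthesis of a mammalian siderophore. Its signal was 6.18 and 6.23 in Control, 4.84 and 4.65 in ALA and 4.89 and 4.59 in SFA. By limma it fell by 1.46 (SE 0.15, adjusted p = 0.00474) and by 1.47 (adjusted p = 0.00369). All its ALA and SFA arrays read below 5, so Bdh2 met the minimum for testing only through the Control arrays, where it was high. Its calls carry that selection, and the size of the fall depends on the floor of the array. The ferritin subunits were close to level, Fth1 at -0.14 and 0.07 and Ftl1 at -0.06 and 0.10. The mRNAs for iron regulatory proteins did not pass either. Aco1 differed by 0.04 and -0.04, and Ireb2 by -0.49 (adjusted p = 0.0612) and -0.33 (adjusted p = 0.125). In that list of 5, limma called none, with 2 and 1 at an unadjusted p under 0.05. Iron-sulfur cluster assembly likewise had none of 9 called, with 1 and 3 at an unadjusted p under 0.05.

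Heme genes moved in both directions. Of 11 genes for heme scavenging, breakdown and export, 1 rose and 1 fell in ALA, and 3 rose and 1 fell in SFA. Hmox1, the inducible heme oxygenase that frees iron from heme, read 7.00 and 6.90 in Control, 8.05 and 8.22 in ALA and 8.21 and 8.29 in SFA. It rose by 1.18 (SE 0.13, adjusted p = 0.0052) and by 1.30 (adjusted p = 0.0032). In SFA Flvcr2, a transporter of the FLVCR family, rose by 0.90 (adjusted p = 0.0194) and Hmox2, the constitutive heme oxygenase, by 0.62 (adjusted p = 0.0489). Blvrb, a biliverdin reductase, fell by 0.66 in ALA (adjusted p = 0.0372) and by 0.65 in SFA (adjusted p = 0.0299). The Hmox1 calls passed with any 1 array left out. Those of Hmox2 and Blvrb in SFA were lost without any 1 of the Control and SFA arrays (adjusted p = 0.0517 to 0.181), and that of Blvrb in ALA without any 1 of the 6 (0.057 to 0.138). Flvcr2 lost its call without the second Control array (0.095) or either SFA array (0.0715 and 0.106).

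In heme synthesis, 2 of 8 genes fell in ALA and 3 in SFA, with medians of -0.24 and -0.42. Fech, the enzyme that inserts iron into the heme ring, fell by 0.58 (adjusted p = 0.045) and by 0.72 (adjusted p = 0.0186). Alad fell by 0.61 in ALA (adjusted p = 0.0271) and Ppox by 0.83 in SFA (adjusted p = 0.0228). In ALA, Fech and Alad lost their calls without any 1 of the 6 arrays (adjusted p = 0.0598 to 0.162). In SFA, Fech and Ppox lost theirs without any 1 of the Control and SFA arrays (0.0575 to 0.116). Alas1, the rate-limiting enzyme of the pathway in liver, was the one iron gene called between the test diets. It read 10.78 and 10.59 in Control, 11.25 and 11.17 in ALA and 10.21 and 10.05 in SFA, so that ALA lay above and SFA below Control. The ALA and SFA pools were also opposite in their sex-linked genes, so diet and sex cannot be told apart in this difference. ALA exceeded SFA by 1.08 (SE 0.13, adjusted p = 0.0383), a call lost in 8 of 15 alternatives and without any 1 array (adjusted p = 0.057 to 0.191). SFA minus Control was -0.55 (adjusted p = 0.0396, and 0.0531 to 0.174 without any 1 array), and ALA minus Control 0.53 (adjusted p = 0.0575).

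The erythroid form, Alas2, showed how much the Control arrays could differ. It read 6.48 and 8.54 in Control, 8.49 and 8.85 in ALA and 9.05 and 8.98 in SFA. The differences of 1.16 (SE 0.57, adjusted p = 0.263) and 1.50 (adjusted p = 0.121) did not pass. Without the second Control array they were 2.18 (adjusted p = 0.0134) and 2.53 (adjusted p = 0.00994). Without the first they were 0.13 (adjusted p = 0.778) and 0.48 (adjusted p = 0.201). Of 7 tested oxygen-sensing genes, Epas1, which encodes HIF-2α, rose by 0.72 (SE 0.12, adjusted p = 0.0172) and by 0.57 (adjusted p = 0.0264). Its ALA call was lost without either Control array or the first ALA array (0.0589 to 0.0838), and its SFA call without any 1 of the Control and SFA arrays (0.0821 to 0.123).

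Markers of the non-hepatocyte cells of the liver moved in the same comparisons. All 12 Kupffer cell and macrophage markers were tested, and 11 rose in ALA and 8 in SFA. Their summed linear signal was 2055 to 2264 in Control, 4316 to 5678 in ALA and 4064 to 4235 in SFA. Vsig4, a complement receptor of Kupffer cells, went from 8.29 and 7.96 in Control to between 9.45 and 10.09. Clec4f, the next brightest, rose by 0.76 in ALA (limma adjusted p = 0.0246). In SFA Clec4f differed by 0.25 (adjusted p = 0.268) and did not pass. Of 12 endothelial markers, 5 rose in ALA and 6 in SFA, with sums of 1774 to 2765, 4330 to 4740 and 3570 to 3634. Of 9 stellate cell and fibroblast markers, 5 and 7 rose. Among them Des read 4.66 and 4.76 in Control, so it met the minimum for testing only through the other arrays. No marker of these 3 lists fell. Kupffer cells recycle red cell iron through Hmox1 and Slc40a1, and endothelial cells are the main source of liver BMP6 and BMP2.

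The part of these cells in the iron gene differences was not tested. Of 11 hepatocyte markers, 1 rose in ALA and none passed in SFA by limma, where 2 had an unadjusted p under 0.05. Hepatocyte sums were 48250 to 50120 in Control, 53850 to 54220 in ALA and 47640 to 48940 in SFA. Bile duct and exocrine pancreas markers had low list means, between 4.48 and 5.18 log2 units. In ALA 1 of 3 tested bile duct markers rose, Krt19 by 0.64 (adjusted p = 0.0432), and 1 of 4 pancreas markers, Cela2a by 0.67 (adjusted p = 0.0326). Cela2a also exceeded SFA by 0.99 (adjusted p = 0.0392). Both were named after their values were seen. In SFA limma called none in either list, with 0 and 1 at an unadjusted p under 0.05.

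**Figure D5:**
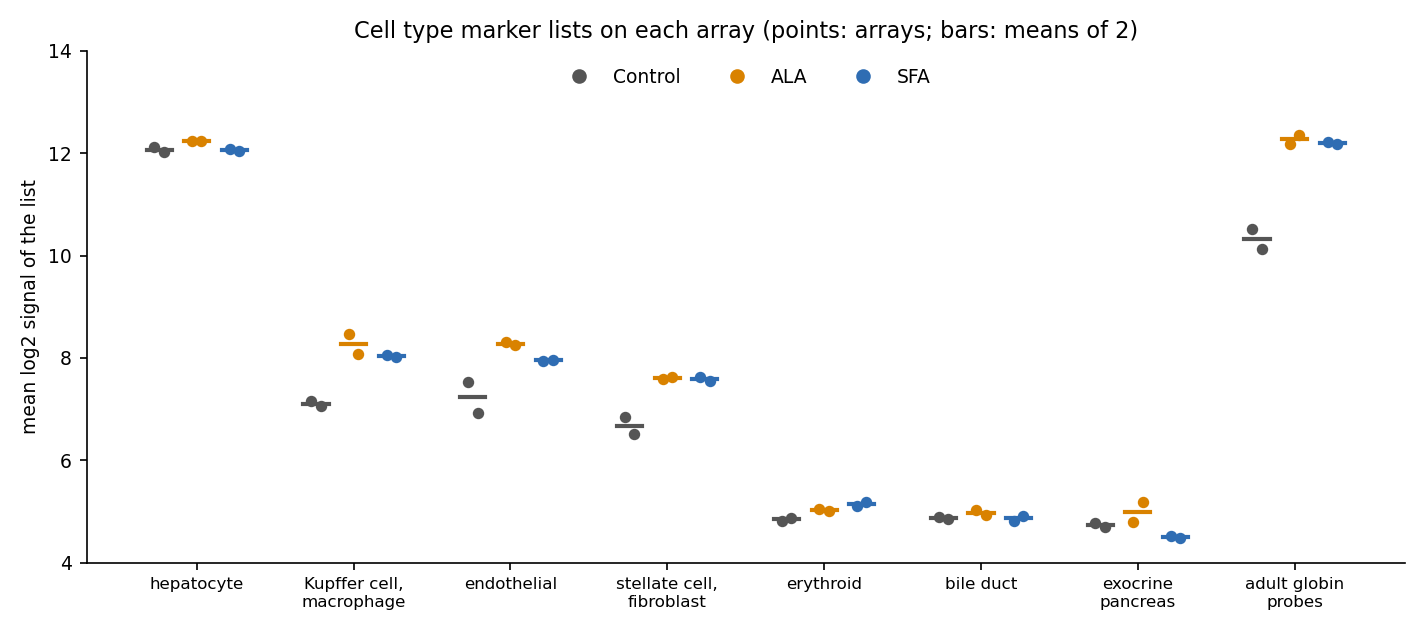
Mean log2 signal of each cell type marker list on each array, with 1 point per array and the diets side by side. The Kupffer list lies at 7.06 and 7.16 in Control and at 8.02 to 8.46 on the other arrays, while the hepatocyte list stays between 12.0 and 12.2.

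The genes whose pattern over the 6 arrays lay closest to that of Hamp were found by the root mean square distance between log2 values centred on each gene's mean. They were Cyp2c38 at 1.08, Cyp7b1 at 1.64, Nox4 at 1.84, Elovl3 at 1.88 and Hspb1 at 1.94, with Hamp2 at 1.60. The distance is not scaled, so it favours genes with large falls. Unlike Hamp, the Control arrays lay far apart for Cyp7b1 (8.35 and 10.98), Nox4 (6.30 and 8.50) and Elovl3 (6.02 and 10.12). Nox4 and Elovl3 read below 5 on all other arrays and met the minimum only through Control. Cyp2c38 read 10.36 and 9.05 in Control, 6.10 and 3.71 in ALA and 4.50 and 3.86 in SFA. It too met the minimum through Control. The correlation with Hamp was highest for Hspb1 (0.999) and lowest for Elovl3 (0.838). Closest to Tfrc were Lrtm1 at 0.16, Cd24a at 0.16, Defb1 at 0.21, Fabp4 at 0.22 and Igfbp3 at 0.25. Defb1 read 4.97 and 4.45 in Control, so it met the minimum through the other arrays. These distances describe 6 arrays in 3 groups and carry no test.

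On chromosome 7, RefSeq lists Ffar3, Ffar1, Cd22 and Mag on one side of the adjacent pair Hamp2 and Hamp, and Usf2, Lsr, Fam187b and Fxyd5 on the other. Of these 8 neighbours, 3 were bright enough to test. Usf2 differed from Control by 0.03 in ALA and -0.11 in SFA, Lsr by -0.30 and -0.31, and Fxyd5 by 0.48 and 0.40. Their adjusted p ran from 0.144 to 0.92, and the differences of the hepcidin pair were larger than any of them.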

How the data were processed

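The arrays were Affymetrix expression arrays, 6 in all, with total RNA labelled with biotin. The deposited values are log2 signals per probe, processed by the authors with RMA and Partek 6.6, per the submitters' processing notes, which give no settings. Their log base is read from the range of the values. The genome build is not given in the sources used here.

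Of 35556 probes, 21789 had 1 gene symbol, 1621 several and 12146 none, and only the first were used. The brightest probe stood for each gene, and genes with a mean log2 signal of at least 5 were tested. A mean per diet was fitted to all 6 arrays with limma 3.58.1 in R 4.3.3 (3 residual degrees of freedom). Calls had a Benjamini-Hochberg adjusted p below 0.05, two-sided. The fit was tested on simulated data. Promoters were aligned with Biopython 1.88.

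The 10 genes, the lists and the tests were chosen with earlier results of these data known. Named besides were up to 4 called genes per list, by the larger difference from Control, fixed regulators, the brightest markers and the 5 nearest patterns. With 2 arrays per diet, precision is limited by their number. The 15 alternatives changed the signal minimum, scaling, probe choice, model or arrays. For a comparison of 2 diets, leaving out either array of the third gives the same fit as comparing only those 4 arrays.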

Additional observations from a re-analysis of the deposited data

Results flagged for a closer look

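Alas1 differed between the test diets, by 1.08 log2 units in ALA minus SFA, with both ALA arrays above Control and both SFA arrays below it. The call was lost in 8 of 15 alternatives, some of which are the same fit. Diet and sex makeup cannot be told apart between these pools.

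Globin probes annotated to several genes lay outside the gene tests. Probes 10375051 and 10375058 (Hba-a1 and Hba-a2) were above Control by 1.63 and 1.70 in ALA and by 1.54 and 1.62 in SFA. Probes 10566254 and 10566258 (the adult Hbb genes) were above it by 2.26 and 2.21 in ALA and by 2.17 and 2.18 in SFA. The alpha-globin probe 10375051 read 10.90 and 10.60 in Control and 12.25 to 12.47 on the other arrays. The embryonic Hbb-y read 3.42 to 3.83 on the 6 arrays.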

How the results depend on the processing

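The 15 alternatives kept the sign of 24 of 30 differences of the 10 genes. Changing the signal minimum, probe choice or model cannot move these differences, nor can leaving out arrays of the third diet. The count thus rests on scaling and on leaving out arrays of the diets compared. Hamp ran from -7.17 to -5.97 in ALA and -7.86 to -6.85 in SFA, and Tfrc from 1.82 to 2.51 and 2.46 to 2.67. Signs changed for Tfr2 in ALA, Slc40a1 in both, Trf in SFA and ALA minus SFA, and Hfe in ALA minus SFA. Of the called iron genes, Id2, Bdh2 and Hmox1 in both comparisons and Smad9 and Atoh8 in SFA passed under all 15.

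The 11 iron genes called in ALA became 7 with no signal minimum or with only the 4 arrays compared, 17 with a trended robust fit, and 3 to 7 with 1 array left out. The 14 in SFA became 5 to 16 with 1 array left out, and their split of 5 up and 9 down became 7 and 7 under median centring, while in ALA 5 and 6 became 6 and 5 under cyclic loess. The 1 between ALA and SFA became 3 with the trended fit and 0 with 4 arrays, with the replicate block or with any array left out (0 to 0); limma then gave 9 to 17 at an unadjusted p under 0.05. The replicate numbers did not pair the arrays (correlations -0.03, -0.004 and 0.02). With the replicate block, 9 iron genes were called in ALA and 15 in SFA.

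Over all genes, 871 calls in ALA became 448 with 4 arrays and 267 to 475 with 1 array left out, and 1512 in SFA became 245 to 1428. The SFA split of 727 up and 785 down became 1161 and 373 under median centring, 967 and 528 under quantile and 957 and 586 under loess normalization. Median centring moved the median SFA difference from -0.05 to 0.10. Between ALA and SFA, 168 calls became 0 to 421.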
